A study of Mus musculus with 12 samples.

Results

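Mural cells are the pericytes of capillaries and the smooth muscle cells of arterioles, and 10 genes that mark them (Pdgfrb, Rgs5, Kcnj8, Abcc9, Vtn, Notch3, Anpep, Acta2, Tagln and Higd1b) were followed through limiting-cell RNA-seq libraries of the mouse dentate gyrus. All 10 were found by symbol among the 50600 genes counted. They were chosen from pericyte and smooth muscle genes with earlier results of these libraries known, including their levels in the cell types and their variation between progenitor libraries, so their values are a description. They were part of the fits over all genes, and where calls of members are counted below, nothing is read from them.

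The 3 cell types were sorted from dentate gyri of adult Nestin-GFP mice, in which the regulatory sequence of the Nestin gene drives green fluorescent protein (GFP), and the labels name no other allele and no treatment for any group. Stem cells were positive for GFP and for GLAST, a glutamate transporter encoded by Slc1a3. Progenitors were positive for GFP alone, and astrocytes for GLAST alone. All 3 gates took live cells without CD31, CD45, O1 or O4, the surface antigens of endothelial, microglial and oligodendrocyte-lineage cells, and no antibody in the sort was directed at a mural antigen. There were 4 libraries of each cell type, and each was made from 50 cells. Stem cell libraries are numbered 1 to 4, while astrocyte and progenitor libraries carry letters a to d.

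Pericytes lie inside the basement membrane of capillaries, and their recruitment to growing vessels depends on platelet-derived growth factor B released by endothelial cells and received by PDGFRB. Smooth muscle cells wrap the arterioles and contract through smooth muscle actin, myosin and their regulators. Both cell types are known to express Notch3 and an ATP-sensitive potassium channel built from Kcnj8 and Abcc9. Nestin is an intermediate filament of neural stem cells and progenitors that vascular cells can also express, and Nestin reporters are known to label some pericytes.

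Libraries held 5031166 to 12535028 counts, and 3 counts, taken as the floor, corresponded to 0.207 to 0.651 CPM (counts per 1000000, scaled by edgeR's TMM factors). The cDNA was amplified without molecular identifiers named in the sources, so such a floor covers counting error only. The marker lists followed the sort in part. The 7 genes of oligodendrocyte precursors all had at least 10 counts in every progenitor library (summed level 2052 to 3560.5 CPM, against 73.2 to 213 in stem cells). Slc1a3 was at 2758 ± 589 CPM in progenitors, 7931 ± 1299 in stem cells and 4693 ± 1027 in astrocytes (SD, n = 4 each), so the progenitor libraries were not free of the transcript of the sorted antigen. Nes had 291, 1, 62 and 163 counts in progenitors a to d, no count in astrocytes, and 4 counts in stem cell 2 alone among stem cells. Ptprc, which encodes CD45, had no count in any library.

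The members as a group were abundant in 3 of the 4 progenitor libraries and scarce in the other. Their summed level was 2525, 41.4, 2172 and 935 CPM in progenitors a, b, c and d. It was 188, 126, 58.2 and 199.7 CPM in astrocytes a to d, and 93.9, 112, 71.2 and 87.6 CPM in stem cells 1 to 4. Progenitor b was thus below every astrocyte and stem cell library, and the other progenitor libraries were above all of them. The part of Pdgfrb in these sums differed between libraries. Without it the sums were 2417, 5.62, 2090.3 and 886 CPM in progenitors a to d. They were 144, 105, 33.1 and 22.4 CPM in astrocytes a to d, and 6.8, 69.9, 32.9 and 12.1 CPM in stem cells 1 to 4. At least 10 counts were reached by 10, 5, 8 and 9 members in progenitors a to d, by 2 to 4 members in astrocytes and by 2 to 6 members in stem cells. In libraries of pooled cells, fewer mural cells and less RNA of these genes per cell cannot be told apart.

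**Figure D1:**
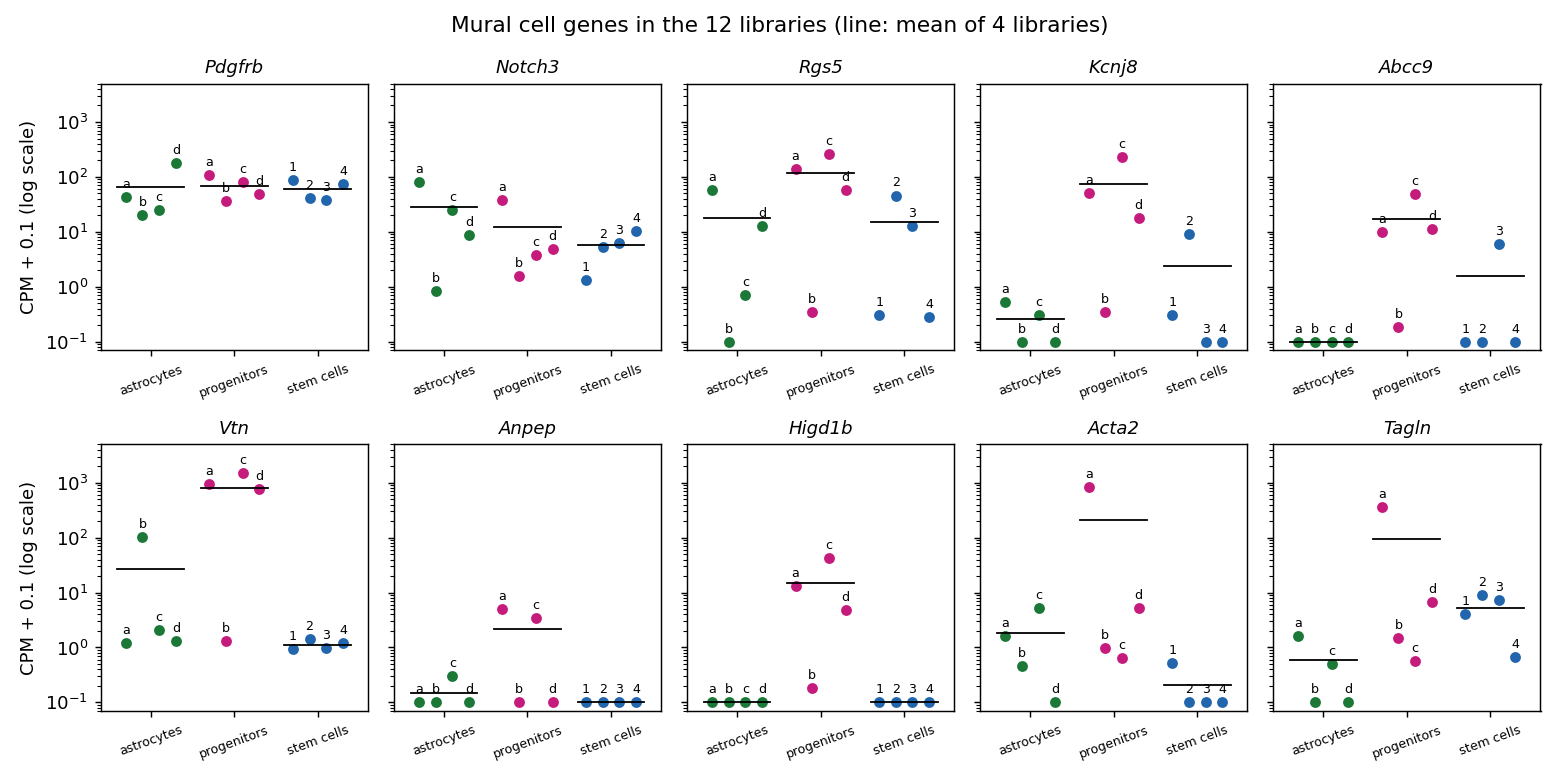
Level of each of the 10 mural cell genes in the 12 libraries, as CPM + 0.1 on a log axis; points are libraries with their letter or number, and the line is the mean of the 4 libraries of a cell type. Vtn sits between 779 and 1498 CPM in progenitors a, c and d and at 1.22 CPM in progenitor b, while Acta2 and Tagln are high in progenitor a alone.

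Pdgfrb (ENSMUSG00000024620.11, chromosome 18, 61045150 to 61085061, forward strand of GRCm38, as for the positions that follow) encodes the receptor for platelet-derived growth factor B. Its level was 43.8, 20.3, 25.1 and 177 CPM in astrocytes a to d, 108, 35.8, 81.7 and 49.1 CPM in progenitors a to d, and 87.1, 42, 38.3 and 75.5 CPM in stem cells 1 to 4. It was the one member that never fell under 111 counts in the 12 libraries, and the 3 cell types overlapped throughout. The means were 66.7 ± 74.5 CPM in astrocytes, 68.5 ± 32.3 in progenitors and 60.7 ± 24.3 in stem cells (SD, n = 4 each), an order in which no neighbours differed beyond their spread. The log2 fold change of progenitors was 0.06 (standard error 0.78) over astrocytes and 0.15 (standard error 0.42) over stem cells, and its sign turned when single libraries were left out.

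Notch3 (ENSMUSG00000038146.7, chromosome 17, 32120820 to 32166852, reverse strand) encodes the Notch receptor of mural cells. It was at 80.5, 0.733, 24.5 and 8.56 CPM in astrocytes, 38.4, 1.46, 3.74 and 4.79 CPM in progenitors, and 1.24, 5.24, 6.11 and 10.2 CPM in stem cells. Its mean was the highest in astrocytes (28.6 ± 36 CPM), followed by progenitors (12.1 ± 17.6) and stem cells (5.71 ± 3.7; SD, n = 4 each), with overlap between all of them. Progenitor a held 79.3% of its progenitor signal. The log2 fold change of progenitors was -1.18 (standard error 1.41) over astrocytes, and 1.05 (standard error 1.09) over stem cells, the latter becoming -0.78 without progenitor a. The counts were made without strand, and 6.03% of its exonic bases lie under Gm17276, which runs the other way.

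Rgs5 (ENSMUSG00000026678.10, chromosome 1, 169655501 to 169695813, forward strand) encodes a regulator of G protein signalling and is among the most used markers of pericytes. Progenitors a to d had 138, 0.244, 266 and 58 CPM. Astrocytes had 58.6, 0, 0.598 and 12.6 CPM, and stem cells 0.206, 45.7, 12.7 and 0.186 CPM. Every cell type thus held libraries well above the floor beside libraries at or under 3 counts, and 2 progenitor libraries (a and c) exceeded every astrocyte library while 3 (a, c and d) exceeded every stem cell library. The means were 116 ± 115 CPM in progenitors, 18 ± 27.7 in astrocytes and 14.7 ± 21.5 in stem cells (SD, n = 4 each). The log2 fold change of progenitors was 2.76 (standard error 1.83) over astrocytes and 2.97 (standard error 1.66) over stem cells. With a library left out these ranged from 1.90 (without progenitor c) to 4.72 (without astrocyte a) and from 2.15 (without progenitor c) to 4.67 (without stem cell 2).

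Kcnj8 (ENSMUSG00000030247.9, chromosome 6, 142564837 to 142571614, reverse strand) and Abcc9 (ENSMUSG00000030249.15, chromosome 6, 142587862 to 142702315, reverse strand) encode the pore KIR6.1 and the sulfonylurea receptor SUR2 of a potassium channel that opens when ATP falls. They are neighbours on the same strand, 16247 bases apart. Kcnj8 had 51.7, 0.244, 227 and 17.4 CPM in progenitors a to d, and Abcc9 had 9.78, 0.0814, 48.3 and 11.1 CPM. Both had their highest level in progenitor c and their lowest in progenitor b, with 76.6% of the progenitor signal of Kcnj8 and 69.7% of that of Abcc9 in progenitor c. Outside the progenitors Kcnj8 had 68 counts (8.91 CPM) in stem cell 2 and at most 2 counts in any other library, and Abcc9 had 47 counts (5.86 CPM) in stem cell 3 and none in the other 7. The stem cell library that carried one channel gene did not carry the other.

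Over astrocytes, all of which lacked Abcc9, the mean level of that gene in progenitors was at least 28.7-fold higher, computed against 3 counts in each astrocyte library, and at least 11.6-fold without progenitor c. Against stem cells, Kcnj8 had a log2 fold change of 5.01 (standard error 1.93) and Abcc9 one of 3.52 (standard error 2.01), and these ranged with a library left out from 3.33 (without progenitor c) to 9.57 (without stem cell 2) and from 2.22 (without progenitor c) to 10.48 (without stem cell 3). Of the exonic bases of Abcc9, 1.89% lie under 5330439B14Rik on the opposite strand. The counterparts of this channel in neurons and endocrine cells, Kcnj11 and Abcc8, differed from each other. Kcnj11 had 21 counts in progenitor b, 8 in progenitor d, 2 in astrocyte a and none elsewhere. Abcc8 had 181, 254, 418 and 125 counts in progenitors a to d, at most 3 in any astrocyte library and 1 count in all stem cells together, and its edgeR p-value, adjusted by Benjamini-Hochberg over all genes tested, was 0.027 for progenitors against astrocytes and 0.002 against stem cells. Abcc8 was tested only because its counts were high in progenitors, so nothing is read from these p-values. Unlike Kcnj8 and Abcc9, Abcc8 was not low in progenitor b.

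Vtn (ENSMUSG00000017344.4, chromosome 11, 78499091 to 78502324, forward strand) encodes vitronectin, an adhesive glycoprotein that brain pericytes secrete. It had 13772, 15, 16419 and 9094 counts in progenitors a to d, or 948, 1.22, 1498 and 779 CPM. Stem cells had 6 to 10 counts (0.824, 1.31, 0.873 and 1.12 CPM), and astrocytes had 1.09, 104, 1.99 and 1.22 CPM. Progenitor b therefore lay within the range of the stem cell libraries, and astrocyte b, with 569 counts, lay apart from the other astrocytes. Per kilobase of exon, Vtn had the highest mean level of the members in progenitors (397 CPM per kb), ahead of Acta2 (97), Tagln (47.3), Kcnj8 (29.1) and Rgs5 (25.5), and Anpep had the lowest (0.498). The mean was 807 ± 618 CPM in progenitors, 27.1 ± 51.4 in astrocytes and 1.03 ± 0.226 in stem cells (SD, n = 4 each). The log2 fold change of progenitors was 9.59 (standard error 1.64) over stem cells and 4.90 (standard error 1.93) over astrocytes, and the latter was 9.14 without astrocyte b.

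Higd1b (ENSMUSG00000020928.14, chromosome 11, 102835849 to 102838040, forward strand) encodes a small membrane protein of the hypoxia-inducible domain family and is used as a pericyte marker. It had 12.9, 0.0814, 42.3 and 4.71 CPM in progenitors a to d and no count in any astrocyte or stem cell library. As for Abcc9, every progenitor library exceeded every astrocyte library, but in progenitor b this rested on 1 count for each gene. The share of all genes separated in this way is not given here. Its mean in progenitors (15 ± 19 CPM, SD, n = 4) was at least 24.9-fold that of astrocytes and at least 36.7-fold that of stem cells, computed against 3 counts per library. Without progenitor c these limits were 9.77-fold and 14.4-fold. Anpep (ENSMUSG00000039062.15, chromosome 7, 79821803 to 79861059, reverse strand) encodes aminopeptidase N, the surface peptidase CD13 by which pericytes are often sorted. It had 72, 0, 36 and 0 counts in progenitors a to d, 1 count in astrocyte c and none in the other libraries, and was thus detected in the libraries with the most counts of the other members.

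Acta2 (ENSMUSG00000035783.8, chromosome 19, 34241090 to 34255590, reverse strand) and Tagln (ENSMUSG00000032085.5, chromosome 9, 45929619 to 45936058, reverse strand) encode smooth muscle actin and transgelin, an actin-binding protein, and mark arteriolar smooth muscle more than capillary pericytes. Acta2 had 12275, 11, 6 and 59 counts in progenitors a to d, or 845, 0.895, 0.547 and 5.05 CPM. Tagln had 5335, 17, 5 and 78 counts, or 367, 1.38, 0.456 and 6.68 CPM. Both were therefore high in progenitor a alone, which held 99.2% of the progenitor signal of Acta2 and 97.7% of that of Tagln, and both were lowest in progenitor c, where Rgs5, Kcnj8, Abcc9, Vtn and Higd1b were highest. Acta2 had 1.52, 0.367, 5.19 and 0 CPM in astrocytes, and 4 counts in stem cell 1 and none in the others. Tagln had 3.92, 8.77, 7.36 and 0.559 CPM in stem cells and 1.52, 0, 0.399 and 0 CPM in astrocytes.

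The log2 fold change of Acta2 in progenitors over astrocytes was 6.91 (standard error 2.47) and became 0.32 without progenitor a. For Tagln in progenitors over stem cells it was 4.15 (standard error 1.81) and became -0.86 without progenitor a. Counts of both genes are uncertain in part. Other actin genes share long stretches of near-identical coding sequence with Acta2, and 67.9% of the exonic bases of Tagln lie under Pcsk7 and Gm48529 on the opposite strand.

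The variation between progenitor libraries followed a pattern over the members. Progenitor a was the highest for 5 members (Pdgfrb, Notch3, Anpep, Acta2 and Tagln) and progenitor c for the other 5 (Rgs5, Kcnj8, Abcc9, Vtn and Higd1b). Progenitor b was the sole lowest for 7 members, all but Anpep, Acta2 and Tagln, and held 13.1% of the progenitor signal of Pdgfrb, 3.03% of that of Notch3 and at most 0.368% of that of any other member. The same counts were obtained without TMM factors. Over the 12858 genes with at least 5 CPM on average in progenitors, each library was the lowest for 24% to 26.8% of genes, progenitor b for 26.8%. Progenitor b had 10015373 counts and 16501 genes with at least 10 counts, within the range of the other progenitor libraries. With 4 libraries no correlation was computed.

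**Figure D2:**
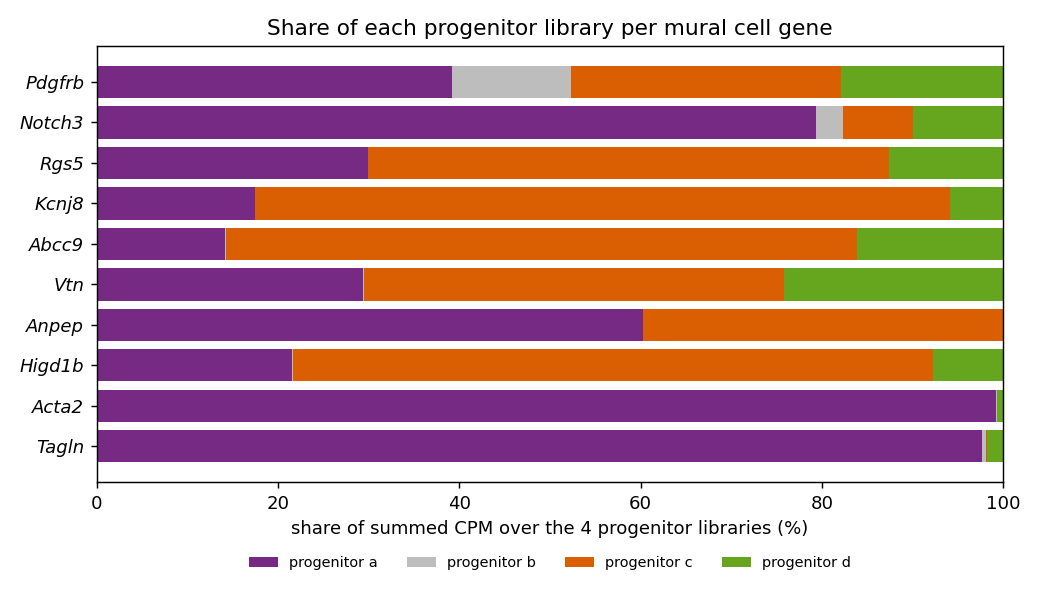
Share of the summed CPM of the 4 progenitor libraries that each library held, in percent, for each mural cell gene. Acta2 and Tagln fall almost wholly to progenitor a, while Kcnj8, Abcc9 and Higd1b fall for 69.7% to 76.6% to progenitor c, and progenitor b is visible only for Pdgfrb and Notch3.

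Promoter sequences are shown for the members that were highest in progenitor c, since these moved together between progenitor libraries. They were taken from RefSeq on GRCm38.p6, which held windows for 7 of the 10 members and none for Higd1b, Tagln or Pdgfrb, and are limited to bases before the annotated gene, 5′ to 3′ on the strand of the gene. The windows are chr1:169655251-169655500 (forward) for Rgs5, chr6:142571615-142571864 (reverse) for Kcnj8, chr6:142702316-142702524 (reverse) for Abcc9 and chr11:78498870-78499090 (forward) for Vtn. Capitals mark TGGGAA, the core letters bound by RBPJ, the DNA-binding partner of Notch receptors, and TATAAA, the TATA box, on either strand (in Vtn a forward and a reverse TATAAA overlap).
Rgs5: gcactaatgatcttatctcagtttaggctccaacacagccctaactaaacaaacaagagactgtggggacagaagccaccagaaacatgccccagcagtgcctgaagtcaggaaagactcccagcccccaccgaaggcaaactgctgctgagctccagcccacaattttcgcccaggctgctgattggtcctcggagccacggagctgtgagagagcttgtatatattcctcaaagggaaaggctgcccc
Kcnj8: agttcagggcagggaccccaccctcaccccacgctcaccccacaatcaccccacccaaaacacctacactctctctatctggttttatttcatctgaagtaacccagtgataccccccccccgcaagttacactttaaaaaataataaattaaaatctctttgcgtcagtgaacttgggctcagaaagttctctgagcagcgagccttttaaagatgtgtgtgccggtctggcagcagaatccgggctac
Abcc9: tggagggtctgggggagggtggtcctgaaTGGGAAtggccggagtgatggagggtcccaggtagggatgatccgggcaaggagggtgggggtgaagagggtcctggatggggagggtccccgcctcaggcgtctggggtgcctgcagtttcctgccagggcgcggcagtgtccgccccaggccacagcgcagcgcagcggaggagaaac
Vtn: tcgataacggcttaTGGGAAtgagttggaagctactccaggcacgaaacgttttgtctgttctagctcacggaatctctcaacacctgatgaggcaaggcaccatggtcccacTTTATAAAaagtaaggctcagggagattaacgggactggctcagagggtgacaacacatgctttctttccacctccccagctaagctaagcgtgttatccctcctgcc
Over the 250 bases before the start, TGGGAA was found for 3 of 7 members (Abcc9, Vtn and Acta2) and in 21.6% of all 32851 promoters. TATAAA was found for 1 of 7 (Vtn) and in 12.4% of all promoters. The CArG box, to which serum response factor binds in smooth muscle genes, was found for 0 of 7 and in 1.47% of all promoters. Tagln had no window, and sequences that depart from the searched letters were not counted. A missing match therefore does not show that a site is absent. A match describes the letters and is not a measured site.

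In the comparison of progenitors with stem cells, 7 of the 10 members passed the filter, which asked for 10 counts or more in 4 or more of the 8 libraries. Among the 15427 genes tested, 4.95% were called higher and 3.66% lower in progenitors (edgeR's quasi-likelihood test, Benjamini-Hochberg adjusted p under 0.05). Of the members, 1 was called higher (Vtn) and 0 lower, with 3 members at an unadjusted p under 0.05 and 2 called by DESeq2 (Vtn and Higd1b), which called 10.5% of its genes higher. Of all 15427 genes tested, 3278 had an unadjusted p under 0.05. Over the 13 fits run, Vtn had log2 fold changes between 9.12 and 10.02. Vtn was also among the values by which the members were chosen, and in stem cells it had at most 10 counts. For Acta2 and Higd1b, neither of which passed the filter, every progenitor library exceeded every stem cell library. This rested on 6 counts in progenitor c against 4 in stem cell 1 for Acta2, and on 1 count in progenitor b against none for Higd1b. The share of all genes separated in this way is not given here, so nothing is read from it.

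In progenitors against astrocytes, 5 members passed the filter. Here 6.18% of 14806 genes were called higher and 2.45% lower in progenitors, and 2792 had an unadjusted p under 0.05. EdgeR called 0 members, with 2 at an unadjusted p under 0.05. DESeq2 called 4 (Abcc9, Higd1b, Kcnj8 and Vtn) and 11.7% of its genes higher. Without progenitor b, the library in which the members were low, edgeR called 3 members (Abcc9, Higd1b and Kcnj8) and 5.54% of all genes tested higher. Such fits asked for 10 counts or more in 3 libraries. These 3 members had at most 2 counts in any astrocyte library, so they passed only through progenitors a, c and d. Without progenitor a, c or d they were not tested, and edgeR called 0 members. Nothing is read from this difference. In astrocytes against stem cells, 0.0468% of 12831 genes were called in either direction, and 1226 had an unadjusted p under 0.05. Of 3 members that passed, edgeR called 0, with 0 at an unadjusted p under 0.05 and 0 called by DESeq2, which called 5.97% of its genes. The log2 fold change of astrocytes was 0.12 (standard error 0.80) for Pdgfrb, 0.25 (standard error 1.95) for Rgs5 and 2.29 (standard error 1.38) for Notch3. Since the members were chosen with these contrasts known, their counts are set beside the shares of all genes as a description only. The comparisons share libraries and are not independent of each other. The same totals over all genes stand beside the counts at an unadjusted p under 0.05 that are given below for other lists.

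Another 43 pericyte and smooth muscle genes, of which 23 are pericyte genes and 20 smooth muscle genes, were described beside the members. Of 23 tested in progenitors against stem cells, 3 rose and none fell, with a median log2 fold change of 1.93 against 0.04 over all genes tested. Some of them, such as Ebf1 and Zic1, had 10 counts or more in progenitors alone. They passed the filter only through progenitors, which favours a rise. The list was also chosen with earlier results of these data known, so nothing is read from this count or median. Cspg4, which encodes the proteoglycan NG2 of pericytes and of oligodendrocyte precursors, was at 397 ± 129 CPM in progenitors and 1.5 ± 1.63 in stem cells (SD, n = 4 each; log2 fold change 8.14, standard error 0.69, edgeR adjusted p = 0.00027). Ebf1, a transcription factor gene, had 219, 136, 110 and 175 counts in progenitors and 0, 1, 0 and 3 in stem cells (log2 fold change 6.23, standard error 1.29, edgeR adjusted p = 0.015). Tpm1, which encodes a tropomyosin of the actin filament, was at 254 ± 76.8 CPM in progenitors and 54.5 ± 24 in stem cells (SD, n = 4 each; log2 fold change 2.20, standard error 0.35, edgeR adjusted p = 0.0047). None of the 3 was scarce in progenitor b, with 3116, 136 and 2403 counts. All 3 calls held with each library left out (highest edgeR adjusted p 0.0018 for Cspg4 and 0.02 for Tpm1, and just under the threshold for Ebf1), whereas Ebf1 and Tpm1 were not called with all 12 libraries in one fit.

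In progenitors against astrocytes, 22 of the 43 genes were tested and 1 rose, with a median of 1.24 against -0.03 over all genes. That gene was again Cspg4 (log2 fold change 6.46, standard error 0.88, edgeR adjusted p = 0.0053). Ebf1, Zic1, Tpm2 and Crip1 reached 10 counts in 1 astrocyte library alone and passed the filter through progenitors. Nothing is read from this count or median either. Without progenitor b, 9 of the 43 genes were called in each of these comparisons, among them Foxs1, Casq2 and Cspg4 in both, beside 5.54% and 4.23% of all genes called higher in those fits. Leaving out any other progenitor library gave 1 call against astrocytes and 3 against stem cells. Foxs1 and Casq2 had 10 counts or more in progenitors a, c and d alone. They were therefore not tested without a, c or d, and nothing is read from the difference in calls. In astrocytes against stem cells 13 of the 43 genes were tested and edgeR called 0. Of these, 0 had an unadjusted p under 0.05 and 0 were called by DESeq2, and the median was 0.55 against 0.14.

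**Figure D3:**
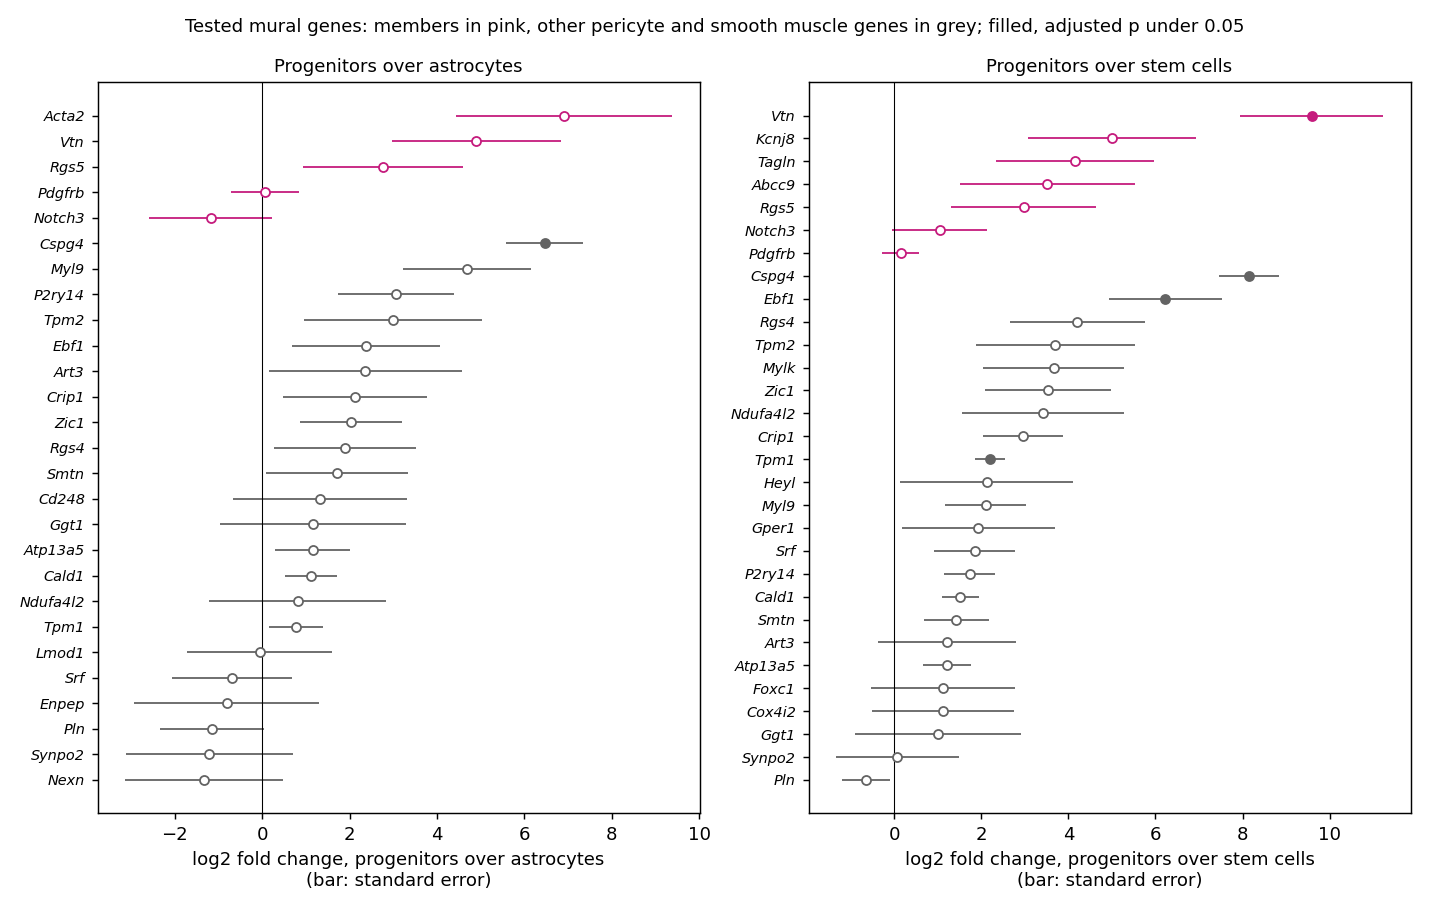
Log2 fold change with its standard error for the tested members (pink) and other pericyte and smooth muscle genes (grey), progenitors over astrocytes on the left and over stem cells on the right; filled points have an adjusted p under 0.05. Vtn, at 9.59, is the one filled member, and Cspg4 is filled in both panels.

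Progenitors a and c also differed in these other genes, some of which are named here after their values were seen. Of the 20 smooth muscle genes, 18 were higher in progenitor a and 1 in progenitor c, and of the 23 pericyte genes, 7 were higher in a and 16 in c. The share of all genes higher in a than in c is not given here, so these counts are a description. At least 10 counts were reached by 19, 6, 21 and 19 of the 23 pericyte genes in progenitors a to d, and by 19, 12, 12 and 13 of the 20 smooth muscle genes. Progenitor a thus held 19 genes of each list, and progenitor c more of the pericyte genes and fewer of the smooth muscle ones. Myh11, the smooth muscle myosin heavy chain, had 4441, 18, 0 and 4 counts. Myocd, the coactivator that switches on smooth muscle genes, had 222, 1, 0 and 0, and Cnn1, which encodes calponin, had 211, 0, 0 and 1. Some pericyte genes were among the 7 that were higher in progenitor a. Des, the filament desmin, had 1405, 1, 96 and 1 counts and Mcam, an adhesion receptor of mural and endothelial cells, had 1345, 1, 408 and 0. Foxs1, a forkhead factor gene without a count in progenitor b, had 344, 0, 85 and 92 counts in progenitors a to d. The summed level was 1156, 320.3, 1447 and 758 CPM for the pericyte genes and 2201, 362, 806 and 473 CPM for the smooth muscle genes. In astrocytes these sums were 60.3 to 249.8 CPM and 127 to 508 CPM, and in stem cells 74.9 to 142 CPM and 155 to 274 CPM. Cspg4, also a gene of oligodendrocyte precursors, made up 254 to 564 CPM of the pericyte sums in progenitors. In progenitor b it made up 254 of the 320.3 CPM.

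Markers of other cells of the vessel wall also varied between progenitor libraries. The 15 endothelial genes summed to 92.1, 7.73, 44.2 and 31.9 CPM in progenitors a to d, with 4, 2, 5 and 3 of them at 10 counts or more. Cldn5, Tie1 and Erg had no count in any progenitor library, Pecam1, which encodes the sorted antigen CD31, had 10 counts in progenitor b and none in the others, and Esam, an adhesion molecule, had 1076, 2, 179 and 285 counts. The highest to lowest order of these sums, a, c, d and b, was that of the summed members, but without Esam, left out after its values were seen, the sums were 18, 7.57, 27.8 and 7.53 CPM, in another order. The 10 genes of perivascular fibroblasts summed to 509, 505, 947 and 1179 CPM, of which Pdgfra, also a gene of oligodendrocyte precursors, made up 389 to 856 CPM. Without it, also left out after the values were seen, the sums were 112, 116, 91 and 518 CPM. Of the 10 genes, 9 had 10 counts or more in progenitor d, where Slc6a13 had 2319 counts, Dcn 598 and Col1a2 634, and Dpt had none. Genes of oligodendrocyte precursors summed to 2463, 2052, 3560.5 and 3325 CPM, those of neuronal progenitors to 1300.5, 1503, 791 and 1463 CPM, and those of astrocytes and stem cells to between 8328 and 11079.8 CPM. The 12 microglial genes summed to 46 to 65.3 CPM, and 6 of them had no count in any progenitor library. The part of these other cell types in the levels of the members was not tested.

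Nes, whose regulatory sequence drives the reporter that selected the progenitors, was at 9.93 ± 8.83 CPM in progenitors (SD, n = 4), at least 16.5-fold above astrocytes when these are set at 3 counts per library, and at least 10.9-fold without progenitor a. Like 7 of the members it was lowest in progenitor b, with 1 count. From the highest to the lowest library its order was a, d, c and b, which among the members was also that of Notch3. The level of GFP itself was not measured here.

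**Figure D4:**
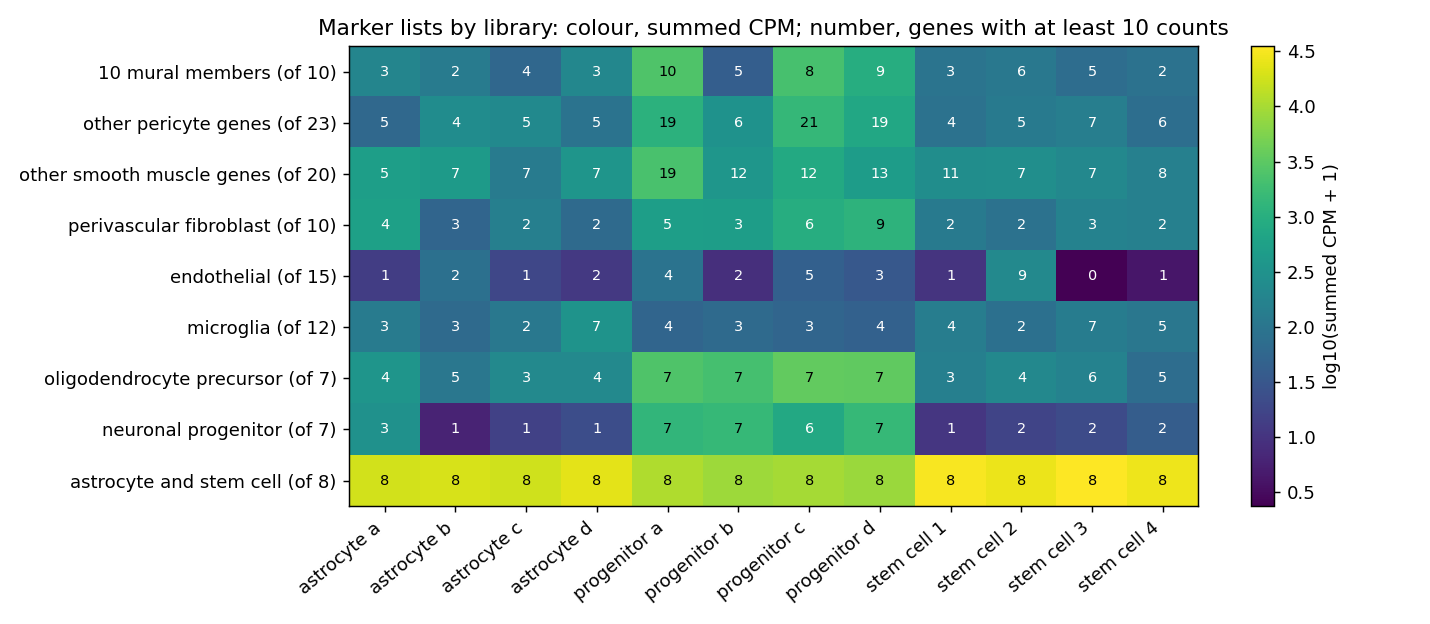
Summed CPM of the genes of each marker list in the 12 libraries, as log10(summed CPM + 1) in colour, with the number of genes at 10 counts or more written in each cell. The rows of the members and of the other pericyte genes are bright in progenitors a, c and d, the row of the other smooth muscle genes is brightest in progenitor a, and 9 of 15 endothelial genes are counted in stem cell 2.

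Outside the progenitors, every library held 111 counts of Pdgfrb or more, and 3 astrocyte and 4 stem cell libraries held 10 counts of Notch3 or more, while high counts of other members were found in a few libraries. In astrocyte b, Vtn had 569 counts, and the mural genes Rgs4 and Atp13a5 had 552 and 732 counts and the endothelial gene Esam 403, whereas Rgs5, Kcnj8, Abcc9 and Higd1b had none. Of the 23 other pericyte genes, 4 had 10 counts or more in astrocyte b and 16 had none. Atp13a5 had 10 counts or more in every library of the 3 cell types. In astrocyte a, Notch3 had 371 counts, Rgs5 270 and Ndufa4l2, a mitochondrial protein gene of pericytes, 149, whereas Vtn had 5. There, 5 of the 23 other pericyte genes had 10 counts or more and 16 had none. In stem cell 2, Rgs5 had 349 counts and Kcnj8 68, whereas Vtn had 10. The endothelial genes summed to 215 CPM in stem cell 2, with 9 of 15 at 10 counts or more, against 1.37 to 8.96 CPM in the other stem cell libraries, and their part in these counts was not tested. No astrocyte or stem cell library had more than 6 of the 10 members at 10 counts or more.

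Partners of the members in their pathways gave 36 genes, of which 25 were tested in progenitors against astrocytes (5 higher and 2 lower), 26 in progenitors against stem cells (5 higher and 1 lower) and 16 in astrocytes against stem cells (0 called by edgeR, 3 at an unadjusted p under 0.05 and 3 called by DESeq2). Their median log2 fold changes were 0.81, 0.55 and 0.34, against -0.03, 0.04 and 0.14 over all genes. Some genes called higher had under 10 counts in every library of the other cell type. They are Dll1, Abcc8 and Lamb1 against both cell types, Pdgfa and Col4a1 against astrocytes, and Lama4 against stem cells. These passed the filter only through progenitors, which favours a call as higher. Nothing is read from their p-values, nor from the counts and medians of the list. Heyl and Rgs4 are also among the 43 genes above.

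Among 5 genes of the platelet-derived growth factor family, Pdgfb, the ligand of the receptor on pericytes, had 47 counts in progenitor a, 40 in stem cell 2 and none elsewhere. Pdgfa, the ligand of the alpha receptor, had 494, 136, 165 and 103 counts in progenitors and at most 2 in any astrocyte library (edgeR adjusted p = 0.016), and did not pass the test against stem cells, which had 29 to 401 counts. Pdgfra, the alpha receptor of oligodendrocyte precursors and fibroblasts, was at 576 ± 225 CPM in progenitors and 1.52 ± 2.48 in stem cells (SD, n = 4 each; log2 fold change 8.49, standard error 0.94, edgeR adjusted p = 0.00094). In astrocytes Pdgfra was at 71 ± 136 CPM (SD, n = 4), with 4 to 1266 counts. It was not called against them (log2 fold change of progenitors 3.11, standard error 1.49, edgeR adjusted p = 0.3). In contrast to Pdgfrb, which had similar means in the 3 cell types, Pdgfra had 4786 to 9378 counts in every progenitor library.

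Of 12 Notch pathway genes, 2 changed in progenitors against both other cell types. Dll1, a Notch ligand of neuronal progenitors, had 343, 149, 157 and 407 counts in progenitors and none in any other library, at least 35.2-fold above astrocytes (edgeR adjusted p = 0.016) and at least 51.9-fold above stem cells (edgeR adjusted p = 0.0034). Notch2, a receptor of glia and stem cells, fell to 74.3 ± 9.85 CPM in progenitors, from 319.9 ± 197 CPM in astrocytes (log2 fold change -2.07, standard error 0.48, edgeR adjusted p = 0.022) and 157 ± 64.3 CPM in stem cells (-1.10, standard error 0.28, edgeR adjusted p = 0.039; SD, n = 4 each). Heyl, a Notch target of mural cells, had 307, 1, 265 and 105 counts in progenitors and 98 counts in stem cell 3, the library with counts of Abcc9.

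Among 4 small regulators of G protein signalling related to Rgs5, none was called against either cell type by edgeR (0 at an unadjusted p under 0.05 against astrocytes and 1 against stem cells). Rgs4 had 3557, 41, 1632 and 415 counts in progenitors, with progenitor b the lowest as for Rgs5 (log2 fold change over stem cells 4.20, standard error 1.55, edgeR adjusted p = 0.14). Rgs2 had 144, 5, 114 and 131 counts in progenitors and 362 in astrocyte c.

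Of 6 partners of vitronectin, Itgb5, a subunit of an integrin that binds it, was lower in progenitors (24.9 ± 12.8 CPM) than in astrocytes (166 ± 94.3 CPM; SD, n = 4 each; log2 fold change -2.70, standard error 0.68, edgeR adjusted p = 0.034), and none passed the test against stem cells, with 2 at an unadjusted p under 0.05. The vascular basement membrane, in which pericytes are embedded, was represented by 7 genes. Col4a1, a collagen IV chain, was at 28.7 ± 20.3 CPM in progenitors and 0.938 ± 0.52 in astrocytes (SD, n = 4 each; log2 fold change 4.92, standard error 1.15, edgeR adjusted p = 0.023). Lamb1, a laminin chain, had 327, 239, 376 and 131 counts in progenitors, 1 count in all astrocytes and 2 in all stem cells (edgeR adjusted p = 0.015 and 0.003). Lama4, a laminin chain of vessels, had 207, 200, 255 and 429 counts in progenitors and 6 counts in stem cell 3 alone among stem cells (edgeR adjusted p = 0.014). In CPM, progenitor b lay within the range of the other progenitor libraries for Lamb1 and Lama4. Several of these pathway calls were lost when single libraries were left out. Whichever of the 4 progenitor libraries was left out, Notch2 was not called against either cell type (edgeR adjusted p up to 0.08 and 0.13; without stem cells 2 and 3 likewise against stem cells), nor were Abcc8 (up to 0.089) and Itgb5 (up to 0.1, also without astrocytes a and b) against astrocytes. Col4a1 was lost without progenitors a, c and d (up to 0.093), Pdgfa without progenitor c (just over the threshold) and Lama4 without progenitor d (0.054). The calls of Dll1, Lamb1, Pdgfra and, against stem cells, Abcc8 held without each library. Against astrocytes, the highest edgeR adjusted p of Dll1 and of Lamb1 in those fits was just under the threshold. With no count filter, Notch2, Abcc8 against astrocytes, Itgb5, Col4a1 and Pdgfa were not called either, and with all 12 libraries in one fit Lama4 and Notch2 were not called against stem cells.

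Genes with a pattern most like the members' were ranked over the 12 libraries. For each gene a profile was formed from the share of its summed CPM in each library, and likeness was the percentage that this profile shared with the mean profile of the 10 members, which had 38.7% in progenitor a, 35% in c, 7.25% in d and 0.621% in b. The median over 12897 genes with a mean of at least 5 CPM was 37.2%, and the members themselves shared from 40.3% (Acta2) to 78% (Rgs5). Of the 10 highest, 9 are named here, Plac9b (90%), Gm9780 (89.1%), Plac9a (86.4%), Adap2 (83.4%), Ets1 (82.8%), Pla1a (81.9%), Gja4 (81.2%), Kcnk10 (81.2%) and Rasl12 (80.5%). Plac9a, Plac9b and Gm9780 are near-identical copies whose counts cannot be assigned with certainty and may stand for 1 gene.

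Gja4, which encodes the gap junction protein connexin 37, had 1051, 1, 535 and 163 counts in progenitors a to d and 1 count in all other libraries. Ets1, a transcription factor gene, had 611, 2, 402 and 66 counts. The low level in progenitor b and in stem cells is part of the profile by which both were ranked. Kcnk10, a potassium channel gene, and Rasl12, a small GTPase gene, differed from them, with 188 and 123 counts in progenitor b. Of the listed mural genes, Slc38a11 (80%), Rgs4 (77%), Heyl (76.8%) and P2ry14 (72.9%) ranked 11, 15, 17 and 24. With a mean of at least 1 CPM, 17678 genes were ranked and 5 of the 10 stayed among the first 10.

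**Figure D5:**
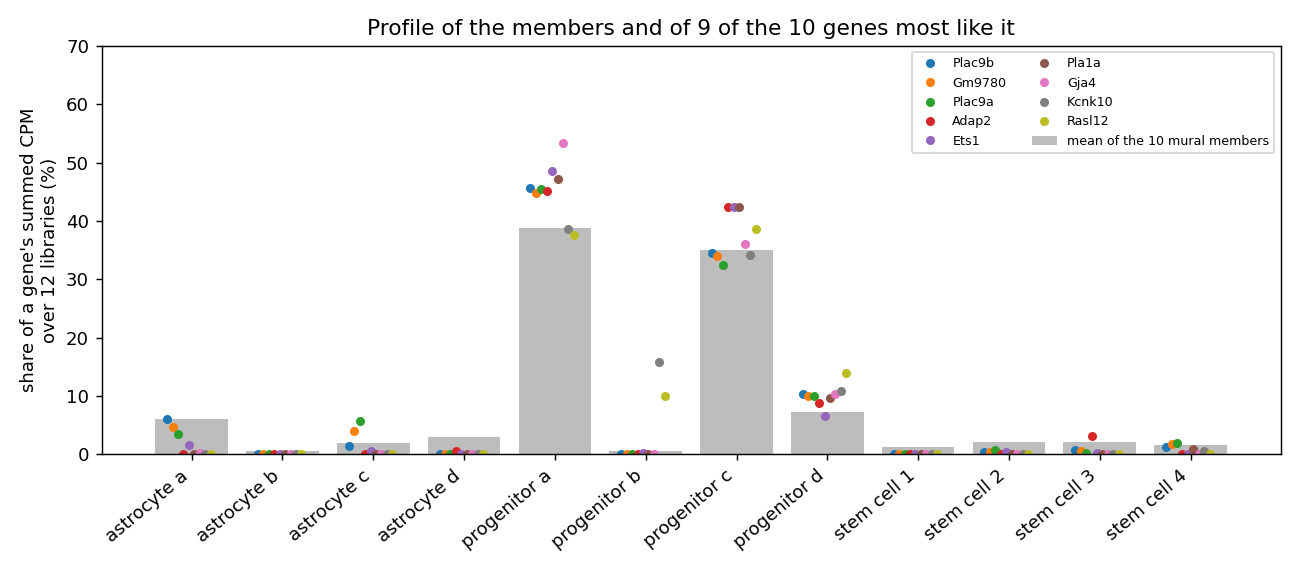
Share of a gene's summed CPM in each of the 12 libraries, in percent; grey bars are the mean over the 10 mural members and coloured points 9 of the 10 genes with the most similar profile. The bars reach 38.7% in progenitor a and 35% in progenitor c and stay at 0.621% in progenitor b, where Kcnk10 and Rasl12 are the points above the axis.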

How the data were processed

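Per the labels and the study's methods, 50 cells per library were sorted from the dentate gyrus, cDNA was amplified with the SMARTer v4 kit and Nextera XT libraries were sequenced. The authors trimmed adapters with AdapterRemoval, aligned reads with HISAT2 (2.0.6) to GRCm38.p4 and counted them on GENCODE genes with featureCounts without strand. The deposited values are raw counts per gene, used as they are. All 12 columns were used. The astrocyte and progenitor columns carry no replicate number and were given letters. The libraries are called biological replicates, but the labels do not name the animals, so p-values measure the spread between these libraries, whose counts differed by more than sampling noise (chi-square per degree of freedom at least 52.5).

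Each pair of cell types was fitted on its 8 libraries with edgeR 4.0.16 in R 4.3.3 (TMM, quasi-likelihood test, 10 counts or more in at least 4 libraries, Benjamini-Hochberg threshold 0.05). Alternatives were DESeq2 1.42.0, RLE size factors, no count filter, all 12 libraries in one fit and each library left out (10 counts or more in 3 libraries). The code of the fits was run on simulated data with less spread than these libraries, which does not test the calls made here. Symbols, positions and exonic overlaps came from a GENCODE annotation on GRCm38. Sums and profiles were computed in Python 3.11.15. The members and gene lists were chosen with earlier results of these data known. Genes named by rule were the members, the sort antigens and Nes, up to 4 called genes with the largest change in each list (otherwise the 2 of highest mean CPM) and the 10 with the most similar profile. Other list genes are named after their values were seen. Of the genes with a similar profile, 1 is left out here. CLEAR needs base coverage and was not run.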

Additional observations from a re-analysis of the deposited data

Results flagged for a closer look

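Dixon's criterion at the 95% level was applied to CPM in 49 sets of 4 libraries. A set was the level of a member, or the summed level of a list, in 1 cell type. In 10 sets the highest or lowest library lay apart from the other 3. Chance meets the criterion in about 1 of 20 sets only if the values are normally distributed, which was not tested. Some sets lay mostly under the floor, as for Abcc9 in stem cells, which had counts in stem cell 3 alone. The share of sets is therefore no yardstick for the members or for the marker lists. The members were also chosen with their variation between libraries known, and the values below are a description. In progenitors, progenitor a stood apart for Acta2 (845 CPM), Tagln (367 CPM) and Notch3 (38.4 CPM). In astrocytes, astrocyte d stood apart for Pdgfrb (177 CPM) and astrocyte b for Vtn (104 CPM). In stem cells, stem cell 2 stood apart for Kcnj8 (8.91 CPM) and stem cell 3 for Abcc9 (5.86 CPM). Of the summed marker lists, the endothelial genes were high in astrocyte b (82.1 CPM) and stem cell 2 (215 CPM), and the neuronal progenitor genes in astrocyte a (305 CPM).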

How the results depend on the processing

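Counts of calls depended on the tool and the libraries. DESeq2 called 2968, 3091 and 876 genes for progenitors with astrocytes, progenitors with stem cells and astrocytes with stem cells, where edgeR called 1278, 1327 and 6. No count filter gave 529 genes in the first and 16 in the last, and all 12 libraries in one fit gave 381 and 346 in the second and last. With a library left out, the counts were 719 to 1871, 830 to 1383 and 0 to 8. For members, DESeq2 called 4 and 2 against astrocytes and stem cells, no filter 1 and 3, and one fit 2 against astrocytes. With a library left out, 0 to 3, 1 to 2 and 0 to 0 members were called in the 3 comparisons. For the other mural genes DESeq2 called 11 and 13, one fit 2 and 1, and no filter 7 against stem cells. With a library left out these were 1 to 9, 3 to 9 and 0 to 0, the highest both times without progenitor b. Foxs1 and Casq2 were tested in those fits and not when progenitor a, c or d was left out. For pathway genes DESeq2 called 13, 11 and 3, no filter 2 against astrocytes, and one fit 1 in astrocytes against stem cells. With a library left out they were 3 to 9, 4 to 8 and 0 to 0. The cause was not tested.

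Of the log2 fold changes of tested members, none turned sign with all libraries kept, and 16 values did with a library left out. Pdgfrb in progenitors over astrocytes became -0.11, -0.24 and -0.21 without astrocytes a, b and c, -0.25 without progenitor a and -0.04 without progenitor c, and reached 1.25 without astrocyte d. Over stem cells it became -0.13 without progenitor a and -0.02 without stem cell 3, and reached 0.38. Notch3 ranged from -3.06 to 0.09 (without astrocyte a) over astrocytes, and over stem cells from -0.78 (without progenitor a) to 1.51, and Tagln from -0.86 (without progenitor a) to 4.58. In astrocytes over stem cells, Pdgfrb became -1.07, -0.02 and -0.05 without astrocyte d, stem cell 2 and stem cell 3 (highest 0.43), and Rgs5 -1.73, -0.16 and -0.16 without astrocyte a, stem cell 1 and stem cell 4. The median log2 fold change of all genes was 0.04 in progenitors over stem cells and 0.14 in astrocytes over stem cells. With RLE size factors in edgeR these medians were 0.07 and 0.22. In the DESeq2 fit, which also took in more genes, they were 0.17 and 0.29. No paired analysis was possible because the astrocyte and progenitor columns carry no replicate numbers. Depth bounds what a count of 0 can show, at 3 counts or 0.207 to 0.651 CPM.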
